A study of Sus scrofa with 6 samples.

Results

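Caspases are cysteine proteases that are made as inactive precursors and cut after aspartate residues once an apoptotic signal is received. In the extrinsic pathway, death receptors at the cell surface recruit and activate caspase 8. In the mitochondrial pathway, cytochrome c leaves the mitochondria and binds APAF1, the assembled apoptosome activates caspase 9, and the effector caspases then cut structural and nuclear proteins. XIAP blocks active caspases, and DIABLO, released with cytochrome c, binds XIAP and relieves that block. The activity of these proteins is set largely by cleavage and release, which mRNA levels do not measure.

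The mRNA levels of 8 genes of this machinery were examined: the caspase genes CASP2, CASP6, CASP8 and CASP9, the apoptosome genes APAF1 and CYCS (cytochrome c), the inhibitor gene XIAP and its antagonist gene DIABLO. They were chosen by name, and they are 8 of 31908 gene IDs, with 26 of the 63041 listed rows. A row holds the TPM (a level scaled for transcript length and library size) of a transcript that carries no name of its own, and a gene level here is the sum of its rows. The RNA came from IPEC-J2 cells, an epithelial line from the small intestine of the pig. The CON group held 3 libraries from cells given PBS and the CDCA group 3 libraries from cells given 50 μM chenodeoxycholic acid, a primary bile acid, each for 24 h. The line and the time were common to both groups.

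The deposited values are TPM without counts, and they do not show how many reads stand behind any 1 row; counting intervals were not computed. Read totals per library are given by the study and were not used here. Listed TPM summed to between 351770 and 366073 per library. TPM over all transcripts of a library adds up to 1000000, so the listed rows hold only a part of it. Pairwise correlations of log2(TPM + 1) across genes were 0.973 to 0.980 among the CON libraries, 0.972 to 0.976 among the CDCA libraries and 0.927 to 0.934 between groups, and no library stood apart within its group. The mRNAs encoded by mitochondrial DNA (mtDNA) made up 13.82% to 15.03% of listed TPM in the CON libraries and 2.90% to 3.45% in the CDCA libraries. Of 7 epithelial markers, 6 were listed and 4 reached a mean of 1 TPM, and their summed level was 856.3 to 911.8 TPM in CON and 619.8 to 673.8 TPM in CDCA, with VIL1 and CDH1 under 1 TPM. The lower sum in CDCA was that of CLDN1, a tight junction gene (mean 473.9 TPM in CON and 202.4 TPM in CDCA), while EPCAM had means of 121.9 and 160.2 TPM, KRT18 65.6 and 75.2 TPM, and KRT8 226.3 and 208.5 TPM. The summed levels of 4 fibroblast markers were 1.26 to 1.77 TPM in CON and 0.89 to 1.09 TPM in CDCA, those of 3 endothelial markers 2.20 to 2.69 and 1.87 to 2.33 TPM, and those of 3 immune markers 0.85 to 1.23 and 6.08 to 6.61 TPM. CD68, a lysosomal protein gene, carried the immune sum in CDCA (mean 4.84 TPM), and the leukocyte gene PTPRC was at or near 0. The part of these differences in the results below was not tested.

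Differences between CDCA and CON were tested with limma on log2(TPM + 1) over the 8708 genes that averaged 1 TPM or more, and a gene is called lower or higher where the false discovery rate (FDR) is under 0.05. Of the 8 genes, 7 passed this filter and XIAP did not. CASP2, CYCS and DIABLO were lower in CDCA, CASP6 and CASP9 were higher, and CASP8 and APAF1 did not pass the test. These calls took 3 of 7 genes in the lower direction and 2 of 7 in the higher, where 23.9% and 29.3% of all tested genes were called. The same 3 and 2 genes had groups that did not overlap, as did 27.8% of all tested genes in the lower direction and 33.8% in the higher. The median log2 fold change was −0.23 over the 7 genes, which is the value of APAF1 itself, and 0.05 over all tested genes. Without CDCA replicate 3 the value of APAF1 was 0.06, so the median of the 7 genes rests on that library. CASP2 alone also passed the fold limit (a log2 fold change over 1 in size), as did 3.90% of all tested genes in the lower direction and 3.51% in the higher, and CASP6 stood just inside the limit. In such bulk libraries, fewer cells with an mRNA and less of it per cell cannot be told apart. The study calls the libraries of a group biological replicates, but the labels do not say that they came from separate cultures, and the p-values measure only the spread between these libraries, which may be technical.

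**Figure D1:**
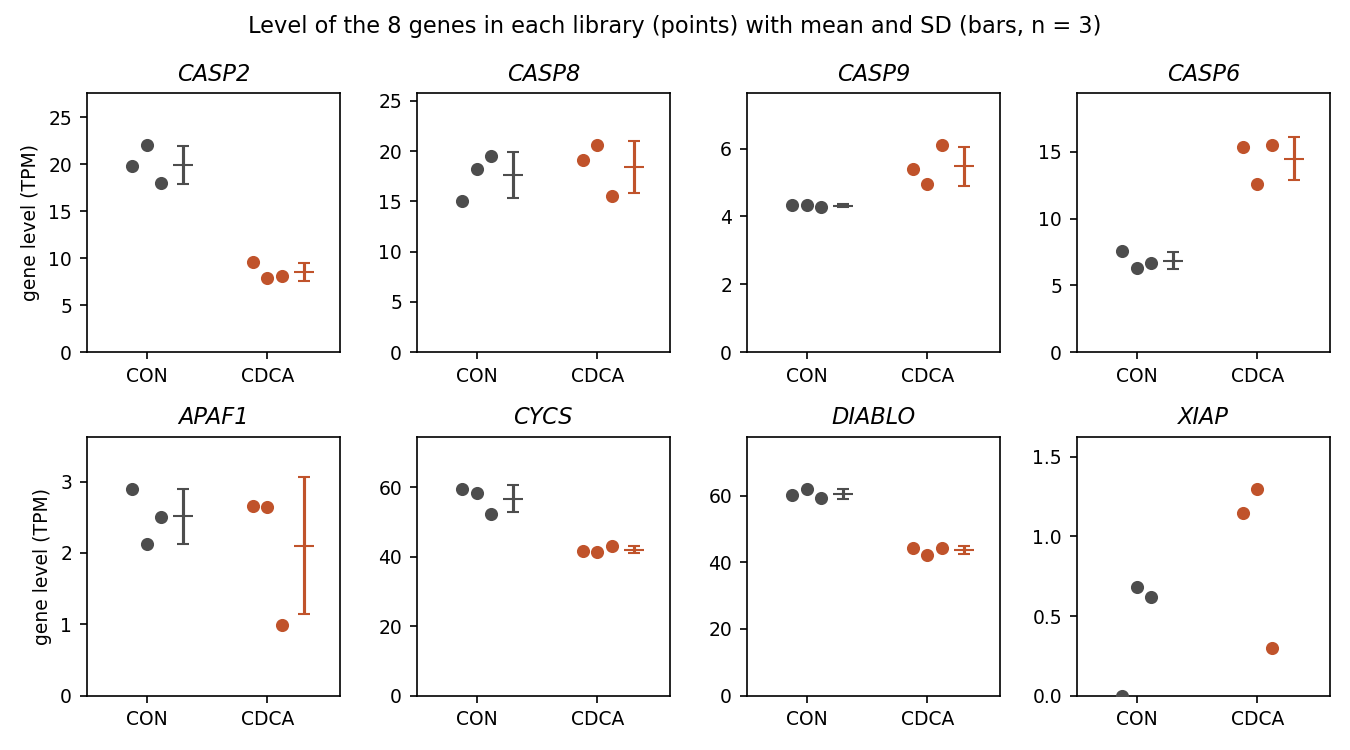
Level in TPM of each of the 8 genes in the 3 CON (grey) and 3 CDCA (orange) libraries, shown as points, with the group mean and SD (n = 3) beside them except for XIAP, which was listed at 0 in 1 library. The y axes start at 0 and differ between panels. The groups are apart for CASP2, CYCS and DIABLO (CDCA lower) and for CASP6 and CASP9 (CDCA higher), and they overlap for CASP8, APAF1 and XIAP.

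CASP2 encodes caspase 2, an initiator caspase that is activated on a platform formed by PIDD1 and the adaptor CRADD. Its level was 19.83, 22.02 and 17.99 TPM in CON and 9.59, 7.85 and 8.07 TPM in CDCA. No CDCA library reached the lowest CON library, and the mean fell from 19.95 ± 2.02 to 8.50 ± 0.948 TPM (SD, n = 3), a ratio of 0.426. In limma the log2 fold change of CASP2 was −1.14 (SE 0.10, FDR 0.00015), a value that lay between −1.28 and −0.996 under every alternative setting. The value of −0.996, just inside the fold limit, was that of its highest row alone. The gene ID of CASP2 (ENSSSCG00000016464) is described as caspase 2 in the deposited table but carries there the symbol of CLCN1, a chloride channel gene. The table of Ensembl IDs and symbols gives CASP2 for this ID. CLCN1 is the neighbour of CASP2 in the RefSeq annotation of Sscrofa11.1, its own gene ID had 0 listed rows, and reads of the neighbours that overlap could not be told apart here.

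The ID of CASP2 held 7 rows, of which 5 were above 0. The highest row was at 10.69, 10.83 and 10.64 TPM in CON and 5.72, 4.40 and 4.59 TPM in CDCA (log2 fold change −0.996, SE 0.10, limma FDR over rows 0.00052). The second row was at 7.57, 9.26 and 5.52 TPM in CON and 3.05, 2.57 and 2.72 TPM in CDCA (log2 fold change −1.14, SE 0.17, FDR 0.0029). Both rows were lower in every CDCA library, and together they carried most of the CASP2 level in each library. The third row, under the filter with a mean of 0.925 TPM, held 1.37, 1.5 and 1.41 TPM in CON against 0.45, 0.53 and 0.29 TPM in CDCA. The fourth was at 0.20, 0.41 and 0.39 TPM in CON and 0.17, 0.12 and 0.26 TPM in CDCA. The fifth ran the other way, from 0, 0.02 and 0.03 TPM in CON to 0.20, 0.23 and 0.21 TPM in CDCA, and it made up 2.54% ± 0.426 of the CASP2 level in CDCA. These 3 low rows were not tested under the filter. In the fit without a filter the log2 fold change was −0.77 for the third row (limma FDR 0.011), −0.17 for the fourth (FDR 0.48) and 0.26 for the fifth (FDR 0.011). The share of the third row in the CASP2 level was 7.19% ± 0.566 in CON and 5.01% ± 1.6 in CDCA, without overlap. The highest row held 54.1% ± 4.98 of the CASP2 level in CON and 57.5% ± 1.88 in CDCA, and the ranges overlapped. The response of the highest row minus that of the second row was 0.14 on the log2 scale (95% interval −0.33 to 0.61, limma FDR 0.76), which showed no difference between these rows and leaves one within that interval possible. The sum of the CASP2 rows without the highest also fell, by 1.14 on the log2 scale (FDR 0.0025).

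The partners of caspase 2 in its activating platform, named here for that role after their values were seen, gave no call. PIDD1 was at 2.10 TPM in CON and 1.99 TPM in CDCA on average (log2 fold change −0.04, limma FDR 0.82), and CRADD at 1.31 and 2.14 TPM (log2 fold change 0.43, FDR 0.052). The groups overlapped for PIDD1, whereas every CDCA library of CRADD lay above all CON libraries. The genes whose centred profile over the 6 libraries was nearest to that of CASP2, by the root mean square difference of log2(TPM + 1) among 8217 genes with a symbol, were POLE2 (0.058), RASSF10 (0.060) and SGO1 (0.061). Mean levels of POLE2 were 4.90 TPM in CON and 1.66 TPM in CDCA, those of RASSF10 were 8.54 and 3.32 TPM, and those of SGO1 were 7.60 and 3.03 TPM.

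CASP8 encodes caspase 8, the initiator recruited to death receptors. Its level was 15.05, 18.26 and 19.47 TPM in CON and 19.08, 20.58 and 15.54 TPM in CDCA. The groups overlapped, with means of 17.6 ± 2.28 and 18.4 ± 2.59 TPM. The log2 fold change was 0.06 (95% interval −0.25 to 0.37, limma FDR 0.72), and its sign turned under 3 settings. Its highest row was at 12.44, 16.44 and 17.10 TPM in CON and 16.18, 18.07 and 12.95 TPM in CDCA, and the second at 2.61, 1.82 and 2.10 TPM in CON and 2.90, 2.51 and 2.40 TPM in CDCA. The third row was above 0 in 1 library of each group, at 0.27 and 0.19 TPM. The response of the highest row minus that of the second was −0.15 on the log2 scale (95% interval −0.74 to 0.44, FDR 0.79). The nearest profiles to CASP8 were those of ZBTB41 (0.031), TLX3 (0.036) and PTOV1 (0.040), by the same measure.

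CASP9 encodes caspase 9, the initiator of the apoptosome. Its level was 4.34, 4.34 and 4.27 TPM in CON and 5.40, 4.96 and 6.10 TPM in CDCA. All CDCA libraries lay above all CON libraries, with means of 4.32 ± 0.0404 and 5.49 ± 0.575 TPM and a ratio of 1.27. The log2 fold change was 0.28 (SE 0.09, limma FDR 0.03). This call rested on the setting: the FDR was 0.20 with totals that leave out the mtDNA-encoded genes, 0.061 without the filter on low values, and 0.026 to 0.088 when single libraries were left out. The call was lost in 5 of these 6 fits and kept only without CDCA replicate 2. Only 1 of the 2 listed rows of CASP9 was above 0.

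CASP6 encodes caspase 6, an effector caspase known to cut lamin A. Its level was 7.56, 6.30 and 6.67 TPM in CON and 15.38, 12.61 and 15.49 TPM in CDCA. The CDCA libraries all lay above the CON libraries, and the mean rose from 6.84 ± 0.648 to 14.5 ± 1.63 TPM, a ratio of 2.12. The log2 fold change was 0.98 (SE 0.10, limma FDR 0.00031), which was the largest rise among the 7 tested genes. It passed the fold limit with a pseudocount of 0.1 TPM (1.07), with listed TPM rescaled to a common total (1.06), and without CON replicate 1 (1.04) or CDCA replicate 2 (1.07).

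The rows of CASP6 did not move together. The highest row held 2.22, 2.33 and 1.62 TPM in CON against 13.29, 9.28 and 12.59 TPM in CDCA, with groups far apart and a ratio of 5.70 (log2 fold change 2.05, SE 0.16, limma FDR over rows 0.00021). The second row was at 4.29, 2.58 and 2.63 TPM in CON and 1.75, 1.71 and 2.02 TPM in CDCA, below the CON libraries throughout (log2 fold change −0.54, SE 0.18, FDR 0.051). It was called lower with a pseudocount of 0.1 TPM (−0.73, FDR 0.045) and with totals that leave out the mtDNA-encoded genes (−0.65, FDR 0.029), and without CON replicate 1, its highest library, it was −0.35 (FDR 0.079). The third row was at 0.94, 1.26 and 2.32 TPM in CON and 0.27, 1.35 and 0.76 TPM in CDCA (log2 fold change −0.49, FDR 0.23), and the fourth was at most 0.27 TPM. With means of 1.51 TPM in CON and 0.79 TPM in CDCA, the third row entered the test only through the group where it is high. Its values are given as a description. As a share of the CASP6 level, the highest row held 29.4%, 37.0% and 24.3% in CON and 86.4%, 73.6% and 81.3% in CDCA. The second row held 45.7% ± 9.59 in CON and 12.7% ± 1.14 in CDCA. The shares of the highest and the second row of CASP6 thus lay apart between the groups in every library. They are estimates without read counts, for rows that name no transcript. The row-by-row responses differed in limma's diffSplice test over 3 rows, the third among them (FDR 0.00012). That test called 17.5% of the 2783 genes with 2 or more tested rows. The response of the highest row minus that of the second was 2.59 on the log2 scale (95% interval 2.07 to 3.11, limma FDR 0.0056), in a test added after seeing the data that called 3.45% of the same genes. Summed without the highest row, CASP6 was at 5.34, 3.97 and 5.05 TPM in CON and 2.09, 3.33 and 2.90 TPM in CDCA, a log2 fold change of −0.62. The row was ranked highest over all 6 libraries through its CDCA values, and in every CON library the second row lay above it, so the row left out was picked by its rise and the turn is given as a value only. The sign of the difference between the first and the second row is tied to that ranking in the same way, whereas diffSplice does not use the ranking. It did take in the third row, which passed the filter only through the group where that row is high. The highest row carries no transcript name, and which exons it holds was not analysed here.

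**Figure D2:**
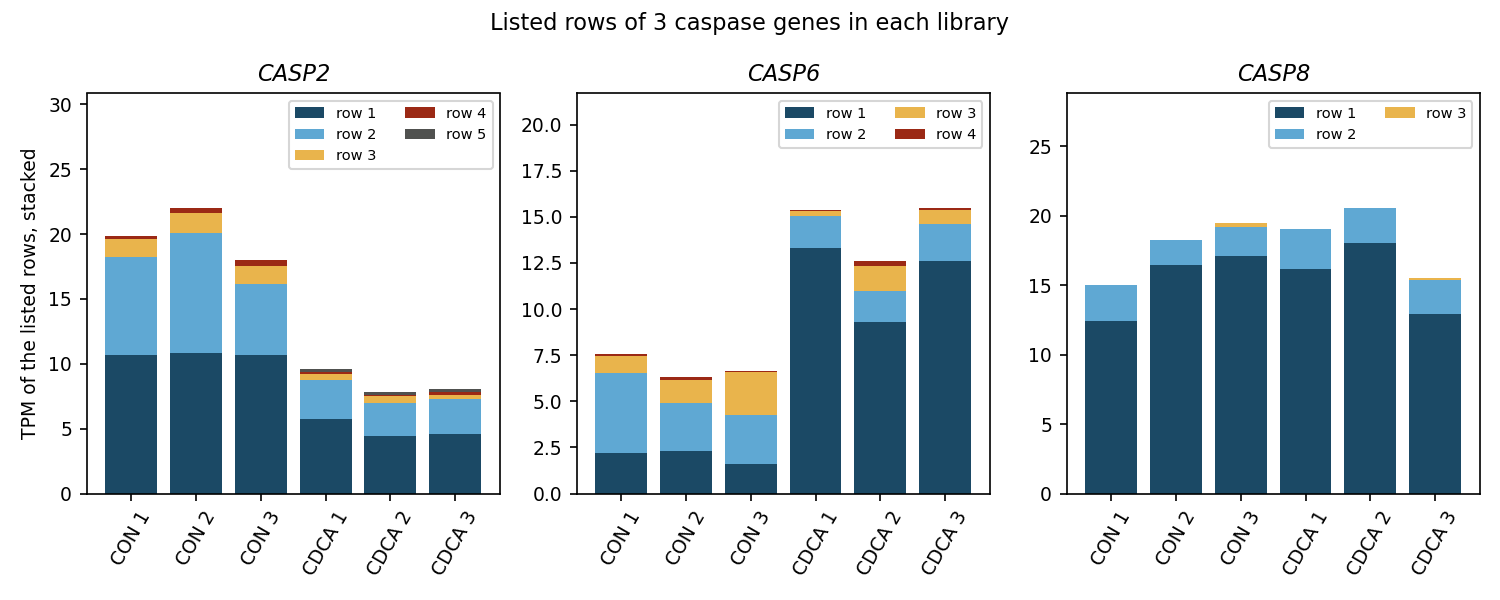
TPM of the listed rows of CASP2, CASP6 and CASP8 in each library, stacked to the gene level, with rows numbered from the highest mean TPM. Rows 1 and 2 of CASP2 are both lower in CDCA. Row 1 of CASP6 takes 24.3% to 37.0% of the bar in CON and 73.6% to 86.4% in CDCA. The bars of CASP8 overlap between groups.

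Over all 8 genes, 11 of the 26 rows reached a mean of 1 TPM and 6 rows were at 0 in every library. Among the 11, 4 were lower in CDCA (the first 2 rows of CASP2, CYCS and the highest row of DIABLO) and 2 were higher (the highest rows of CASP6 and of CASP9, the latter just under the threshold). Over all 12205 rows tested, 18.7% were lower and 23.1% were higher.

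APAF1 encodes the scaffold of the apoptosome, which binds cytochrome c and caspase 9. Its level was 2.90, 2.13 and 2.51 TPM in CON and 2.66, 2.65 and 0.99 TPM in CDCA. CDCA replicate 3 lay below the other 5 libraries, whose values overlapped (log2 fold change −0.23, 95% interval −0.83 to 0.37, limma FDR 0.48). In that library the highest row of APAF1 was listed at 0, against 2.66 and 2.25 TPM in the other CDCA libraries and 1.62 to 2.63 TPM in CON, and the second row was at 0.99 TPM, against 0 to 0.60 TPM elsewhere. Without CDCA replicate 3 the log2 fold change was 0.06. The other 3 rows of APAF1 were at 0 throughout.

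CYCS encodes somatic cytochrome c, a carrier of electrons in the respiratory chain and the ligand of APAF1 once released. It had 1 row, at 59.57, 58.23 and 52.25 TPM in CON and 41.62, 41.44 and 43.08 TPM in CDCA. All CDCA values lay below all CON values, with means of 56.7 ± 3.90 and 42.1 ± 0.899 TPM and a ratio of 0.742. The log2 fold change of CYCS was −0.42 (SE 0.06, limma FDR 0.0011). With totals that leave out the mtDNA-encoded genes it was −0.57.

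DIABLO encodes the mitochondrial protein that binds XIAP and related inhibitors. Its level was 60.12, 62.04 and 59.18 TPM in CON and 44.36, 42.24 and 44.27 TPM in CDCA. All CDCA values lay below all CON values, with means of 60.5 ± 1.46 and 43.6 ± 1.20 TPM and a ratio of 0.722. In limma, DIABLO had a log2 fold change of −0.46 (SE 0.04, FDR 0.00016), which became −0.61 with totals that leave out the mtDNA-encoded genes. The highest of its 3 rows held 99.28% or more of the DIABLO level in every library.

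XIAP encodes an inhibitor that binds active caspases directly. Its single row was at 0, 0.68 and 0.62 TPM in CON and 1.15, 1.30 and 0.30 TPM in CDCA, with overlapping groups. The mean over the 6 libraries was 0.675 TPM, under the filter. In the fit without a filter the log2 fold change was 0.41 (limma FDR 0.44). RefSeq lists 5 transcripts for XIAP, and the deposited table has 1 row.

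**Figure D3:**
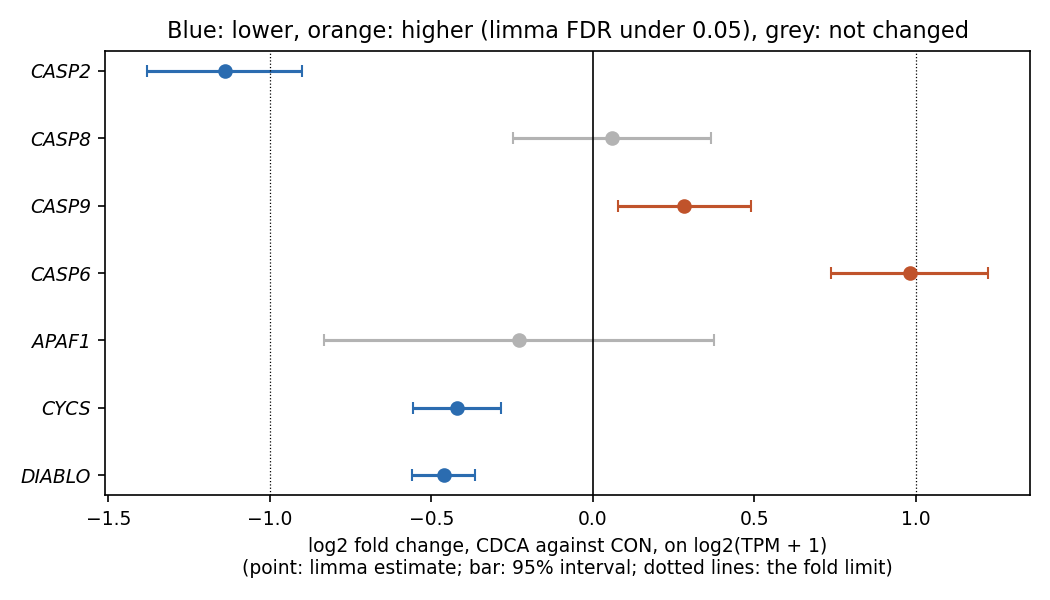
Log2 fold change of CDCA against CON on log2(TPM + 1) for the 7 tested genes (points), with the 95% interval from limma (bars, 3 libraries per group); dotted lines mark the fold limit. CASP2 lies below the lower limit, CASP6 just inside the upper one, and the intervals of CASP8 and APAF1 hold 0.

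TPM is a level per length, and the genes were ordered by it over their listed rows. A level leaves out any transcript that has no listed row. In CON the order of mean levels was DIABLO, CYCS, CASP2, CASP8, CASP6, CASP9, APAF1 and XIAP. The ranges of DIABLO and CYCS overlapped, as did those of CASP2 and CASP8, and every other neighbour was apart. In CDCA the order was DIABLO, CYCS, CASP8, CASP6, CASP2, CASP9, APAF1 and XIAP, with overlap for DIABLO and CYCS and for APAF1 and XIAP. CASP2 was thus the highest of the 4 caspases by mean in CON, where its range overlapped that of CASP8, and below both CASP8 and CASP6 in every CDCA library.

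Of the other caspase genes reported here, CASP1, which matures inflammatory cytokines, was listed at 0 in every library. CASP10, CASP13, CASP14 and CASP15 stayed under 1 TPM in every library and were not tested. CASP4, CASP5 and CASP12 were looked for, and no listed gene was matched to them.

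Genes around the caspases were read from lists of known roles, of which the 3 largest changes are named, and their counts stand against 23.9% of all tested genes called lower and 29.3% called higher. Of 11 tested death receptors, ligands and adaptors, 0 were lower, 4 were higher and 7 did not pass the test. The share higher is near that of all genes. The median log2 fold change was 0.28, the value of TNFSF10, named after its values were seen. TNFSF10 averaged 0.98 TPM in CON and 1.4 TPM in CDCA, so it entered the test only through the group where it is high. The median is therefore given as a description. FAS, the receptor upstream of caspase 8, was at 3.03, 2.01 and 1.64 TPM in CON and 5.37, 5.92 and 3.28 TPM in CDCA (log2 fold change 0.85, limma FDR 0.019), a call lost in 4 of the 6 fits that leave out a library, where the FDR reached 0.066, and also without the filter (FDR 0.052) and with its highest row alone (FDR 0.18). CFLAR, a caspase 8 homologue without protease activity that restrains it, was at 13.55, 14.46 and 12.53 TPM in CON and 19.82, 21.55 and 21.78 TPM in CDCA (log2 fold change 0.60, FDR 0.00048). TRAF2, an adaptor of tumour necrosis factor receptors, was at 1.13, 3.03 and 1.26 TPM in CON and 2.51, 0.53 and 0.26 TPM in CDCA. Its groups overlapped (log2 fold change −0.51, FDR 0.36), and the value ran from −0.95 without CDCA replicate 1 (FDR 0.053) to −0.21 without CON replicate 2 or without CDCA replicate 3, with −1.05 at a pseudocount of 0.1 TPM. FADD, the adaptor between FAS and caspase 8, named for that role after its values were seen, was at 0.73, 0.40 and 0.51 TPM in CON and 0.38, 0.33 and 0.28 TPM in CDCA, lower in every CDCA library but under the filter and not tested.

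Of 10 tested BCL2 family genes, which govern the release of cytochrome c, 3 were lower, 4 were higher and 3 did not pass the test (median log2 fold change 0.18), shares near those of all genes. Genes that promote release moved in both directions. The BH3-only gene PMAIP1 rose from a mean of 20.1 to 71.1 TPM (log2 fold change 1.78, FDR 2.1e-05) and BBC3, of the same kind, from 2.69 to 8.85 TPM (1.41, FDR 0.00035). BAX was also higher (0.54, FDR 0.0072). BMF, counted among the 4, was at 0.51 TPM in CON and 2.14 TPM in CDCA on average, so it entered the test only through the group where it is high and its call is no support. BID, another BH3-only gene, fell from 27.8 to 16.1 TPM (−0.75, FDR 8.7e-05), and BOK, a relative of BAX, from 4.31 to 2.41 TPM (−0.64, FDR 0.0011). These last 4 genes were named after their values were seen, to complete the calls of the list. MCL1, which opposes release, was at 80.65, 76.74 and 94.08 TPM in CON and 30.52, 6.59 and 43.67 TPM in CDCA (log2 fold change −1.94, FDR 0.034). The CDCA values of MCL1 spread widely, and its FDR passed 0.05 in 4 of the 6 fits that leave out a library and reached 0.094, and it was 0.088 without the filter. Without CDCA replicate 2, the lowest of them, its log2 fold change was −1.17 (FDR 0.0036).

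Of 8 tested genes listed for proteins of mitochondrial release and heme attachment, 3 were lower, 1 was higher and 4 did not pass the test (median log2 fold change −0.09). HCCS, listed for heme attachment and named for that role after its values were seen, averaged 0.045 TPM and was not tested. HTRA2, given below with the XIAP family, is among these 4 as well. The count of lower genes became 2, with the loss of CYC1 (−0.185, FDR 0.043; named after its values were seen), in 9 of the 13 alternatives, among them every fit that leaves out a library other than CON replicate 1. ENDOG, a mitochondrial nuclease, fell from 5.03 to 1.73 TPM (log2 fold change −1.16, FDR 0.00044), and AIFM1, a mitochondrial flavoprotein that can move to the nucleus, fell from 57.4 to 43.7 TPM (−0.39, FDR 0.0002). AIFM2 rose from 2.66 to 4.61 TPM (0.62, FDR 0.0015). Of 3 tested genes of the XIAP family and its antagonists, BIRC5 fell from 44.7 to 14.7 TPM (−1.55, FDR 6.8e-06), BIRC3 rose from 16.6 to 45.6 TPM (1.41, FDR 3.1e-05), and HTRA2 was at 17.8 and 17.9 TPM (0.01, FDR 0.92), with a sign that turned under 4 settings. BIRC5 encodes survivin, which also serves in chromosome segregation.

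Of 9 tested caspase substrates and execution genes, 3 were lower, 3 were higher and 3 did not pass the test (median log2 fold change −0.29), shares near those of all genes. This split rested on the scaling and on single libraries: with totals that leave out the mtDNA-encoded genes, a setting that moved the median of all genes by −0.13, 6 were lower and 0 higher, and with libraries set to the same median ratio 6 were lower and 1 higher. The number higher was also 1 without the filter and in each fit without CON replicate 2, CON replicate 3, CDCA replicate 1 or CDCA replicate 2. GSN, the actin-severing protein gelsolin, was at 1.86, 1.34 and 2.73 TPM in CON and 0.98, 0.26 and 1.19 TPM in CDCA (log2 fold change −0.73, FDR 0.053). GSN entered the test only through the group where it is high, and its FDR fell on either side of 0.05 between settings, so its values are given as a description. PARP1, a DNA repair enzyme cut by effector caspases, was lower (−0.54, FDR 0.0044), as was CAD, an enzyme of pyrimidine synthesis (−0.44, FDR 0.00023). LMNA, the gene of the caspase 6 substrate lamin A, named for that role after its values were seen, fell from 165.9 to 135.9 TPM (−0.29, FDR 0.016).

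**Figure D4:**
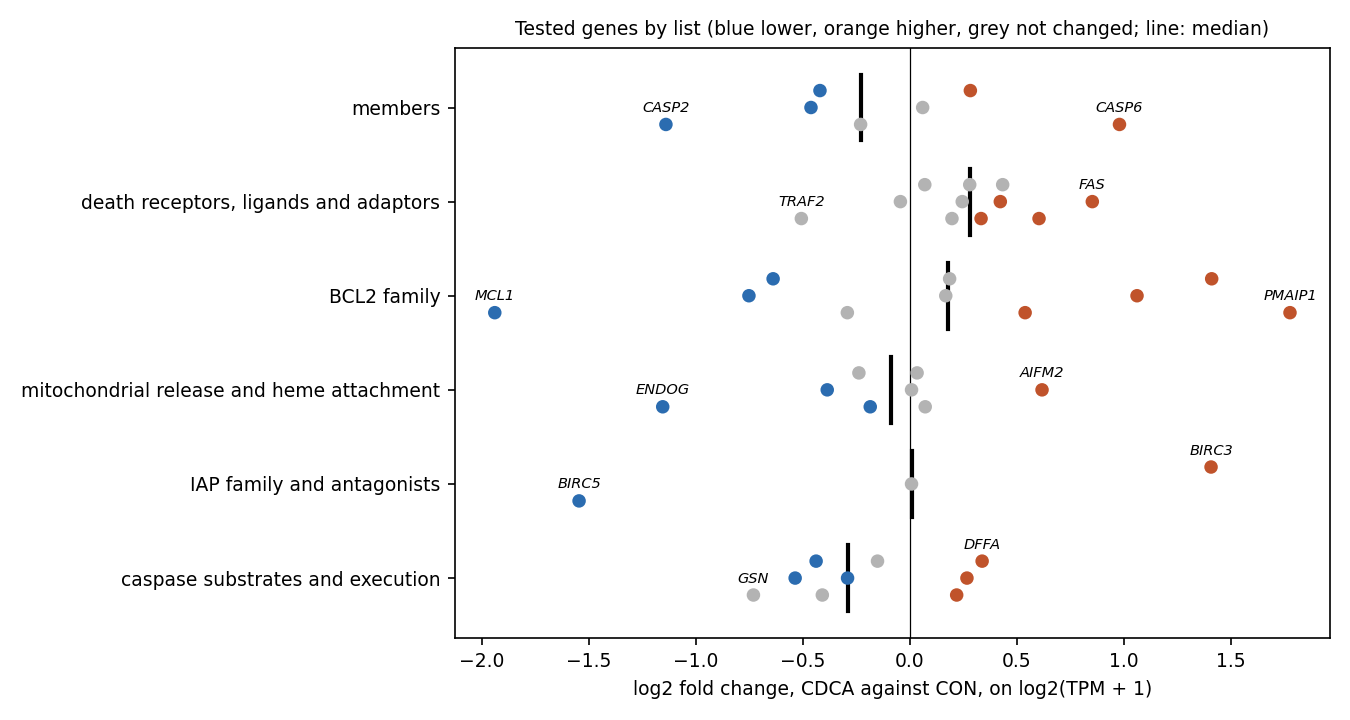
Log2 fold change of CDCA against CON on log2(TPM + 1) for every tested gene of the 8 genes (members) and of 5 lists, with the median as a line; blue is lower and orange higher at a limma FDR under 0.05, grey is not. The lowest and highest gene of each list are named, from MCL1 at −1.94 to PMAIP1 at 1.78. BAX and TNFSF10 were matched through the gene number in the description, since their IDs carry other symbols.

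**Figure D5:**
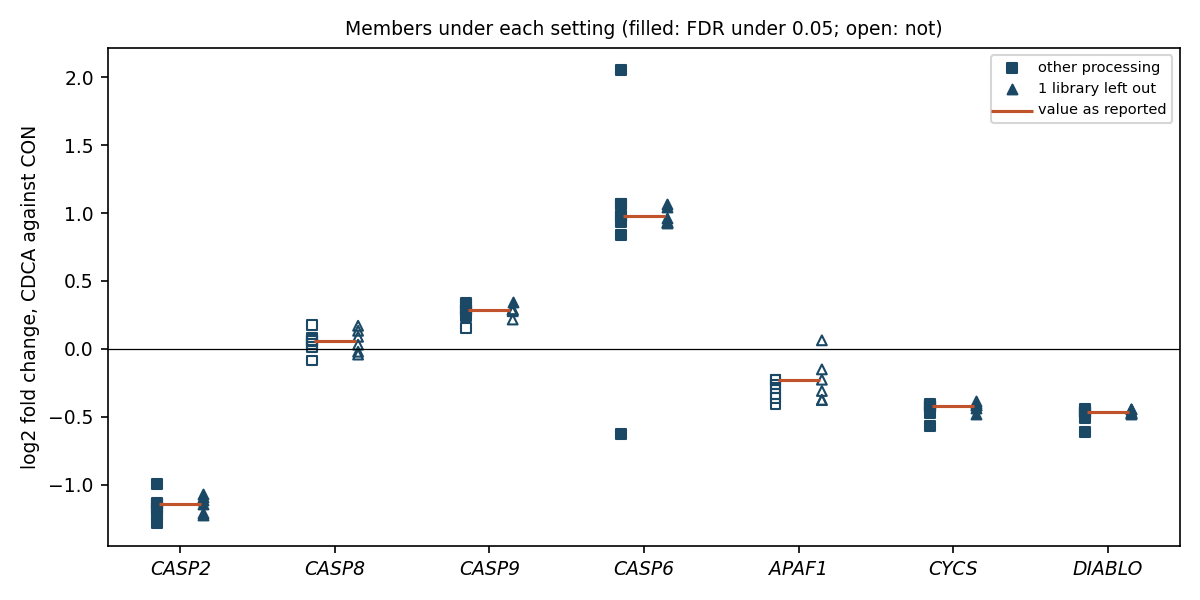
Log2 fold change of the 7 tested genes as reported (line), under other processing (squares) and with 1 library left out (triangles); filled symbols have a limma FDR under 0.05. CASP2, CYCS and DIABLO stay below 0 with filled symbols under every setting that could test them, CASP9 has open symbols, and CASP6 runs from −0.62 (without its highest row) to 2.05 (its highest row alone).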

How the data were processed

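Per the labels, total RNA of 6 IPEC-J2 libraries (3 CON, 3 CDCA) was prepared with an Illumina TruSeq kit; groups came from the sample labels, and the dose of 50 μM from the study's methods. TPM values, made by the authors with RSEM, were deposited 1 per row, without transcript names or counts. The submitters' processing notes name Bowtie 0.12.2 and mm10, a mouse build, although the IDs are those of pig genes; the annotation behind this table is not given in the sources used here. No coordinates are printed.

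Rows were summed per gene ID. Symbols came from a table of IDs (15029 IDs), then RefSeq gene numbers in the descriptions, then the deposited table (18076 IDs in all); 267 IDs carry a different symbol in the table of IDs and the deposited table. R 4.3.3 and limma 3.58.1 (trend, Benjamini-Hochberg over all features tested) were run on log2(TPM + 1) of genes, and of rows, with a mean of at least 1 TPM; diffSplice and the difference of the highest and second row were fitted on genes with 2 or more such rows. The steps were tested on simulated data. Genes named were the 8 members, the other caspases reported here, the 3 largest changes of each list and the 3 nearest profiles of CASP2 and CASP8; others are said to have been named later. The members and lists were chosen with earlier results of these data known. An exact permutation test of 3 libraries against 3 cannot go below p = 0.1 and was not used. Alternatives were a pseudocount of 0.1 TPM, no filter, totals without mtDNA-encoded genes, a common median ratio, listed TPM rescaled to 1000000, the highest row, a replicate block and each library left out; sums without the highest row and the difference of rows were added after seeing the data. The results for 2 genes are not reported here.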

Additional observations from a re-analysis of the deposited data

How the results depend on the processing

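The count of 3 lower genes (CASP2, CYCS and DIABLO) held under every alternative other than the sums without the highest row. The count of 2 higher genes became 1, with the loss of CASP9, without the filter, with totals that leave out mtDNA-encoded genes and with the replicate block, and ranged from 1 to 2 when single libraries were left out. Without the highest row of each gene only 3 genes could be tested, and 2 were lower (CASP2, and CASP6, whose row left out was picked by its rise) and 0 higher; CYCS and DIABLO could not be tested. The count past the fold limit was 1 with the highest row alone, which was CASP6 in place of CASP2. It became 2 with a pseudocount of 0.1 TPM and with rescaled totals, and ranged from 1 to 2 when single libraries were left out. Signs turned for CASP8 (−0.086 with totals without mtDNA-encoded genes, −0.042 without CON replicate 1 and −0.021 without CDCA replicate 2, and −0.109, −0.098 and −0.064 for its highest row; up to 0.17 and 0.161 when other libraries were left out), for CASP6 without its highest row (−0.623), for APAF1 without CDCA replicate 3 (0.063, and 0.189 for its highest row; down to −0.377 and −0.747 when other libraries were left out) and for HTRA2 (−0.137 with totals without mtDNA-encoded genes, −0.04 with a common median ratio, −0.045 without CON replicate 1 and −0.008 without CDCA replicate 2; up to 0.06 when other libraries were left out). The cause was not tested. Of the other values for genes and rows, 389 kept their direction and side of the threshold, 27 lost a call and 9 gained one. The replicate numbers did not pair the libraries: the deviations of same-numbered CON and CDCA libraries correlated at −0.035, −0.092 and −0.051. With the replicate block the FDR of CASP9 was 0.063, no other call of the 8 genes changed, and GSN was called lower (FDR 0.013). Without read counts per row, no limit from depth was computed for the low rows, and a value listed at 0 may be a failed estimate.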

Other observations

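Inflammatory caspases act with inflammasome and pyroptosis genes, and of 9 such genes looked for, 6 were listed and 3 were tested. IL18, a cytokine that caspase 1 matures, was at 12.04, 10.85 and 10.99 TPM in CON and 4.70, 7.07 and 6.09 TPM in CDCA (log2 fold change −0.84, limma FDR 0.0019), with every CDCA library lower. GSDMD, the pore-forming substrate of inflammatory caspases, had a log2 fold change of −0.10 (FDR 0.18), against −0.25 (FDR 0.01) with totals that leave out the mtDNA-encoded genes, −0.15 (FDR 0.045) with a common median ratio and −0.054 (FDR 0.45) without CON replicate 2. NLRP3, an inflammasome sensor, had a log2 fold change of 0.20 (FDR 0.20), which was 0.11 without CDCA replicate 3 (FDR 0.46) and 0.097 with totals that leave out the mtDNA-encoded genes (FDR 0.54). PYCARD, the adaptor that links such sensors to caspase 1, had 0 TPM in every library, as did CASP1. PYCARD was named for its role once its values were known.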
